A study of Homo sapiens with 12 samples.

Results

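The transcripts examined were those of SPP1, which encodes the secreted ligand osteopontin, of its hyaluronan-binding receptor CD44, and of 8 integrin subunits, ITGA1, ITGA2, ITGA3, ITGA5, ITGA6, ITGAV, ITGB1 and ITGB4. These 10 genes were picked by symbol, with their measured values in view, out of the 16705 genes of the expression table, so their levels and differences are given as a description without p values. RNA had been sequenced from 12 libraries of human liver spheroids, 3 in each of 4 groups. Every spheroid was a co-culture of C3A cells, a hepatocyte-like derivative of the HepG2 hepatoma line, with the immortalized hepatic stellate cell line LX-2, and several spheroids were pooled per library. The groups were untreated spheroids and spheroids kept in medium with 1% of a total parenteral nutrition (TPN) mixture of amino acids with electrolytes, glucose, lipid emulsion, trace elements and vitamins, each sampled 24 h and 144 h after the start of exposure. The untreated spheroids of each time point were the control of the exposed ones, and the comparison of the time points also spans the time in culture. In such bulk libraries fewer cells of a type and less RNA per cell cannot be told apart.

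Integrins are paired cell surface receptors made of an alpha and a beta subunit, which link the extracellular matrix outside the cell to actin or keratin filaments inside it. The alpha subunit largely sets the ligand: ITGA1 and ITGA2 bind collagens, ITGA3 and ITGA6 bind laminins, ITGA5 binds fibronectin, and ITGAV binds proteins with an Arg-Gly-Asp (RGD) motif, osteopontin and vitronectin among them. ITGB1 is the beta partner that all 6 of these alpha subunits can use, whereas ITGB4 pairs with ITGA6 in hemidesmosomes. Osteopontin is known in the liver as a secreted product of injured epithelium and of activated stellate cells, and as a ligand of CD44 as well as of integrins.

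Because the RGD motif joins the ligand to RGD-binding integrins such as those with ITGAV, the stretch of SPP1 that encodes it is shown. The codons of the motif are in capitals. It lies in coding exon sequence, exon 6 of 7, at chr4:87981724-87981777 on the plus strand of GRCh38, and is 54 bases long.
SPP1 RGD site: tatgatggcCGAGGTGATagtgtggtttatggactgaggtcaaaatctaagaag
Downstream of the motif the protein is known to be cut by thrombin and by matrix metalloproteinases, and transcripts of these proteases were therefore followed as well.

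SPP1 had the largest log2 fold change of the 10 transcripts with TPN at both time points, and exposed and untreated spheroids moved apart with time. At 24 h the FPKM, which divides the fragments of a gene by its length and by the depth of the library, was 620, 680 and 634 in the untreated libraries. It was 878, 890 and 874 in the TPN libraries. At 144 h it was 352, 353 and 359 in untreated spheroids and 1207, 1185 and 1296 in exposed ones. No value of one group lay within the range of another, so the 4 groups stood in the order untreated 144 h, untreated 24 h, TPN 24 h and TPN 144 h. The ratio of the means was 1.37 at 24 h and 3.47 at 144 h, or 0.45 ± 0.037 (SE, n = 3 per group) and 1.79 ± 0.037 on the log2 scale. All log2 fold changes here were fitted to log2(FPKM + 0.1), and the pseudocount understates the change of low transcripts. Between the time points SPP1 fell by 0.86 on the log2 scale in untreated spheroids and rose by 0.48 in exposed ones. These comparisons share libraries, so they are set side by side only. The difference between the TPN effects at 144 h and at 24 h was 1.34 ± 0.053.

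**Figure D1:**
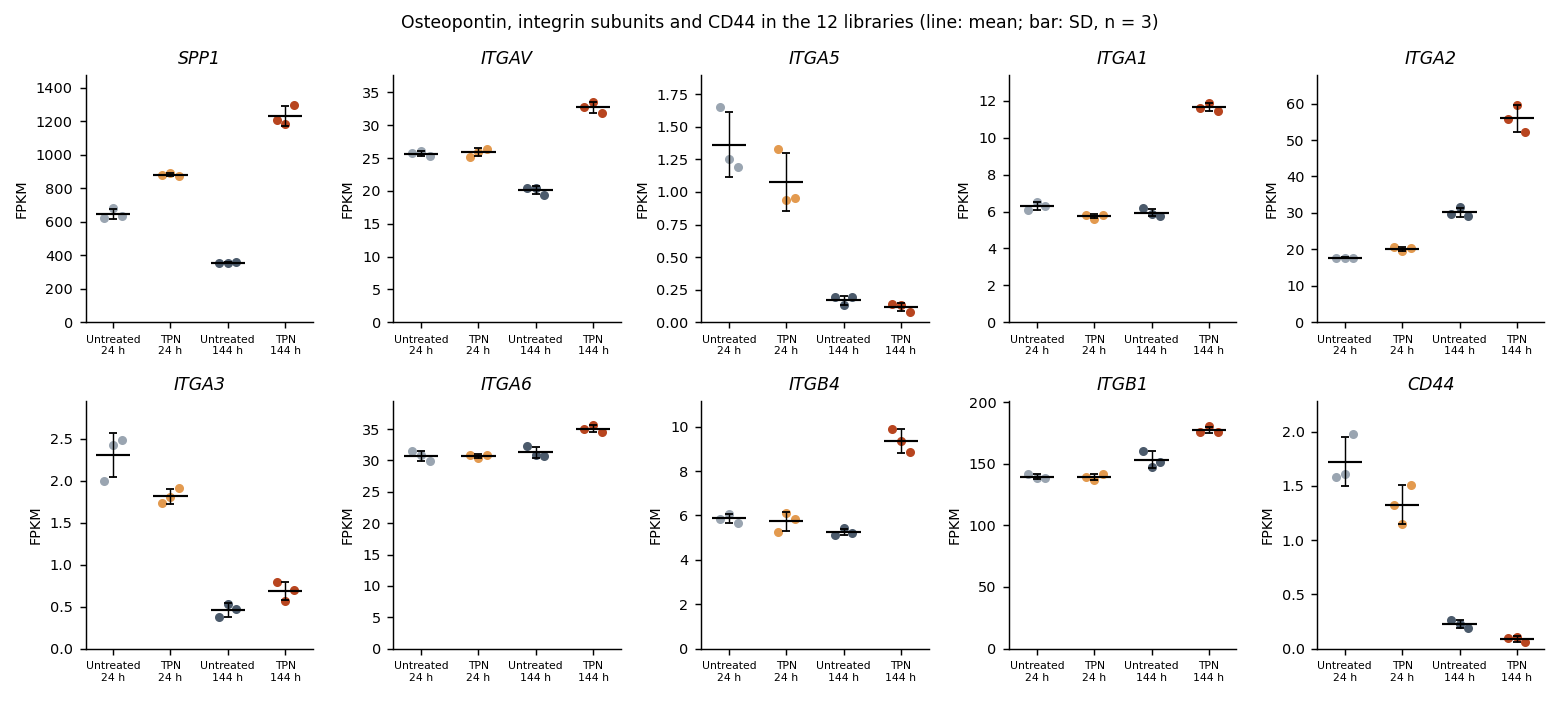
FPKM (vertical axes, from 0) of the 10 transcripts in the 12 libraries by group; points are libraries, lines are means and bars are SD of 3 libraries. SPP1 was highest in the TPN 144 h libraries, at 1185 to 1296 FPKM, whereas CD44 and ITGA5 stayed below 0.3 FPKM in all 6 libraries of 144 h.

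Over the 10 transcripts, 2 were higher and 0 lower at an adjusted p below 0.05 after 24 h of TPN, beside 5.04% higher and 5.46% lower of the 11713 genes tested by limma (2 were higher and 2 lower at an unadjusted p below 0.05). After 144 h, 8 were higher and 1 was lower, beside 24.2% higher and 28.3% lower of all genes. Exposed and untreated libraries did not overlap for 5 of the 10 at 24 h, beside 29.9% of all genes, and for 9 of the 10 at 144 h, beside 57.3%. For the change of the TPN effect from 24 h to 144 h, 8 were higher and 0 lower, beside 14.1% and 16.3%, and the unadjusted counts were also 8 and 0. The 24 h count was 1 when untreated 24 h replicate 1, TPN 24 h replicate 1 or TPN 24 h replicate 3 was left out. The 144 h counts were 8 and 0 with a pseudocount of 1, and 7 and 1 in a model of the 144 h libraries alone. Since the genes were selected on these contrasts, nothing is read from these counts. The median log2 fold change of the 10 was 0.60 at 144 h, beside a median of -0.02 over all genes tested. All 10 passed the filter of a mean of 0.5 FPKM over the 12 libraries, though CD44 and ITGA5 did so only through the 24 h groups.

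**Figure D2:**
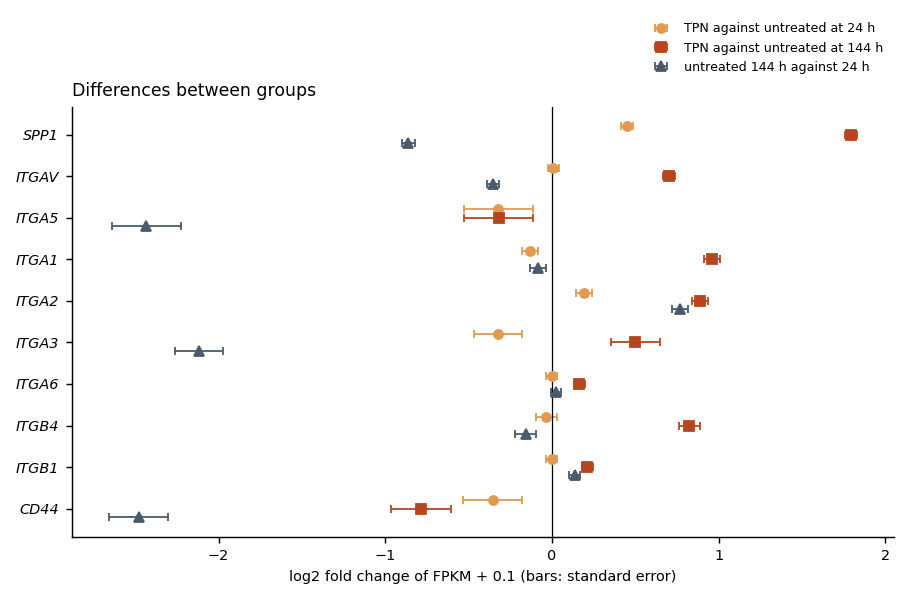
Log2 fold change of FPKM + 0.1 (horizontal axis) of each transcript for TPN against untreated at 24 h (circles), the same at 144 h (squares) and untreated 144 h against 24 h (triangles); bars are standard errors from the model of 12 libraries. At 144 h SPP1 lay furthest to the right, at 1.79, and CD44 furthest to the left, at -0.79.

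ITGAV, an alpha subunit of RGD receptors, did not separate the groups at 24 h and did so at 144 h. Its FPKM at 24 h was 25.7, 26.0 and 25.4 in untreated and 25.2, 25.9 and 26.5 in TPN libraries, ranges that overlapped. At 144 h it was 20.4, 20.5 and 19.4 in untreated and 32.7, 33.6 and 31.9 in TPN libraries. Every exposed library of 144 h was above the 24 h libraries and every untreated one below them, as was also the case for SPP1. The log2 fold change with TPN was 0.0089 ± 0.035 at 24 h and 0.70 ± 0.035 at 144 h, a ratio of means of 1.63. Across the 12 libraries ITGAV had a Pearson correlation of 0.954 with SPP1, the highest among the other 9 genes. This describes 4 groups of libraries that share a culture and an exposure, not 12 independent points.

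ITGA5, the fibronectin receptor subunit, was low throughout. At 24 h it had 1.65, 1.25 and 1.19 FPKM in untreated and 1.33, 0.94 and 0.95 FPKM in TPN libraries. At 144 h the libraries had 0.19, 0.13 and 0.19 FPKM in untreated and 0.14, 0.13 and 0.08 FPKM in TPN libraries. Exposed and untreated values overlapped at both times, with a log2 fold change of -0.32 ± 0.21 at each. At 144 h these values correspond to about 13 fragments per untreated library and 8.6 per TPN library, estimated from the smallest steps of the FPKM values. Fibronectin itself, FN1, reached 1461 FPKM in untreated and 2028 FPKM in TPN spheroids at 144 h and rose with TPN (log2 fold change 0.48).

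The collagen receptor subunits ITGA1 and ITGA2 had nearly the same TPN difference at 144 h from different courses in time. ITGA1 had 6.09, 6.49 and 6.32 FPKM in untreated and 5.83, 5.61 and 5.81 FPKM in TPN libraries at 24 h. After 144 h its values were 6.18, 5.88 and 5.77 FPKM untreated and 11.6, 11.9 and 11.5 FPKM with TPN. All exposed libraries were thus below the untreated ones at 24 h, with a log2 fold change of -0.13 ± 0.048, and above them at 144 h, where the log2 fold change was 0.96 ± 0.048 and the ratio of means 1.96. In the untreated spheroids ITGA1 hardly differed between the time points (log2 fold change -0.08 ± 0.048). ITGA1 spans the gene PELO in the RefSeq annotation, so reads of PELO could have been counted with it. The deposited gene extents also overlap ITGA1 with ITGA2 by 29719 bases, an overlap that the RefSeq annotation does not have. Its part in the levels of either gene was not tested.

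ITGA2 rose with time in both arms and more with TPN. At 24 h it had 17.5, 17.7 and 17.8 FPKM in untreated and 20.6, 19.6 and 20.4 FPKM in exposed libraries. The 144 h libraries had 29.8, 31.6 and 29.1 FPKM untreated and 55.9, 59.7 and 52.3 FPKM exposed. No 2 of the 4 groups overlapped. The log2 fold change with TPN was 0.19 ± 0.046 at 24 h and 0.89 ± 0.046 at 144 h, and untreated spheroids of 144 h exceeded those of 24 h by 0.77 ± 0.046. With each library omitted in turn the 24 h difference lay between 0.18 and 0.21. In the untreated spheroids of 144 h ITGA2 had reached the level of ITGA6, whose range it overlapped, and with TPN it was above it.

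Among the laminin receptor subunits, ITGB4 rose most with 144 h of TPN and ITGA6 least. ITGB4 had 5.85, 6.06 and 5.68 FPKM in untreated and 5.26, 6.11 and 5.84 FPKM in TPN libraries at 24 h. By 144 h the values were 5.14, 5.42 and 5.19 FPKM untreated and 9.91, 9.36 and 8.84 FPKM with TPN, a ratio of means of 1.78 and a log2 fold change of 0.82 ± 0.063. The groups overlapped at 24 h and stood apart at 144 h. The ITGB4 gene overlaps GALK1 in the RefSeq annotation, and shared reads could affect its level.

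ITGA6, the partner of ITGB4, was nearly flat at around 30 FPKM. Its libraries ranged from 29.85 to 31.47 FPKM in untreated and from 30.39 to 30.95 FPKM in TPN-exposed spheroids at 24 h. At 144 h they had 32.2, 30.8 and 30.7 FPKM untreated and 35.02, 35.63 and 34.54 FPKM exposed. Only the last group lay outside the others, with a log2 fold change of 0.16 ± 0.032 and a ratio of 1.12. The ratio of ITGA6 to ITGB4 was 5.25 ± 0.137 (SD, n = 3) without and 5.38 ± 0.464 with TPN at 24 h, and 5.96 ± 0.294 and 3.75 ± 0.193 at 144 h.

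ITGA3, the other laminin receptor subunit, was lower with TPN at 24 h and higher at 144 h, on a much lower level at 144 h in both arms. At 24 h it had 2.0, 2.43 and 2.49 FPKM in untreated and 1.73, 1.81 and 1.91 FPKM in TPN libraries. At 144 h the libraries had 0.37, 0.53 and 0.47 FPKM untreated and 0.79, 0.57 and 0.70 FPKM with TPN. The groups did not overlap at either time, though at 144 h the lowest exposed and the highest untreated library differed by little. The log2 fold changes were -0.32 ± 0.15 and 0.50 ± 0.15, and the second rests on about 39 and 59 fragments per library.

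ITGB1, the common beta subunit, was the most abundant integrin transcript in every group. It had 141.9, 138.0 and 138.3 FPKM in untreated and 139.4, 136.5 and 141.8 FPKM in TPN libraries at 24 h. After 144 h its values were 160.5, 147.4 and 151.7 FPKM untreated and 175.9, 180.5 and 175.7 FPKM exposed. The 24 h groups overlapped and the 144 h groups did not, with a log2 fold change of 0.21 ± 0.032 and a ratio of means of 1.16.

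Set against ITGB1, the alpha subunits together gained in the exposed spheroids of 144 h. The FPKM of the 6 alpha subunits summed to 84.1 ± 0.985 (SD, n = 3) without and 85.4 ± 1.11 with TPN at 24 h, and to 88.1 ± 2.10 and 136.2 ± 5.25 at 144 h. The ratio of this sum to ITGB1 was 0.603, 0.613 and 0.576 in the first 3 of these groups and 0.768 ± 0.0199 in the last. ITGA2 took 21.0% of the sum without and 23.6% with TPN at 24 h, and 34.2% and 41.0% at 144 h. The share of ITGA6 was 36.6%, 36.0% and 35.5% in the same order and 25.8% with 144 h of TPN. ITGA6 thus led the alpha subunits in the 24 h groups, shared the first place with ITGA2 in untreated spheroids of 144 h and came behind it after 144 h of TPN. These are transcript shares per length and say nothing of the receptor pairs formed.

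**Figure D3:**
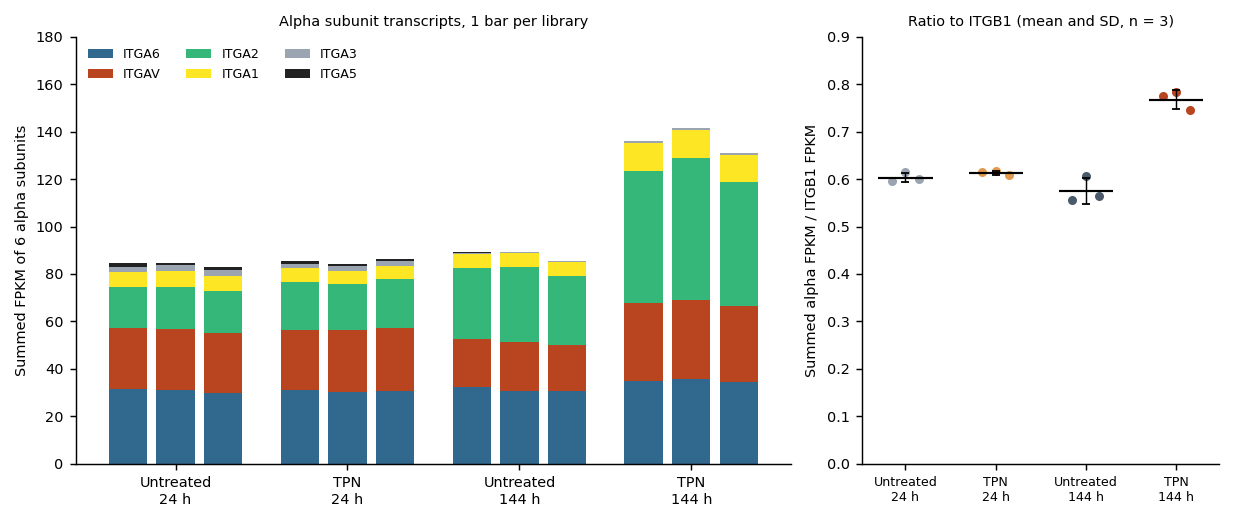
Left, stacked FPKM of 6 integrin alpha subunits, 1 bar per library; right, that sum divided by ITGB1 FPKM, with points for libraries, lines for means and bars for SD of 3 libraries. The TPN 144 h bars reached 131 to 141 FPKM, all above the 83.0 to 89.4 FPKM of the other 9 libraries, and the ITGA2 segment was the largest part of them.

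CD44 differed from the integrin subunits that rose. It had 1.58, 1.61 and 1.98 FPKM in untreated and 1.32, 1.15 and 1.51 FPKM in TPN libraries at 24 h. The 144 h libraries had 0.26, 0.23 and 0.19 FPKM untreated and 0.10, 0.11 and 0.06 FPKM with TPN. Exposed libraries were below untreated ones at both times without overlap, with log2 fold changes of -0.35 ± 0.18 and -0.79 ± 0.18. The ratio of the means at 144 h was 0.397, between about 22 and 8.6 fragments per library, and the log2 fold change ran from -1.27 with a pseudocount of 0.01 to -0.17 with a pseudocount of 1. FPKM per gene does not separate the CD44 splice forms.

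In untreated spheroids 2 of the 10 transcripts were higher and 6 lower at 144 h than at 24 h, beside 20.1% and 52.4% of all genes tested. In exposed spheroids 7 were higher and 3 lower, beside 24.2% and 52.0%. CD44 and ITGA5 met the filter of 0.5 FPKM only through the 24 h groups, so the filter favored their falls in these counts. The 10 genes were chosen with their values in view, and nothing is read from the counts. The middle of all genes tested itself lay at -0.18 (log2) in both time comparisons, and a median ratio scaling of the libraries took it to -0.01, so these directions are best read against that shift. Relative to the median, ITGA2 was higher by 0.95 in untreated spheroids, ITGB1 by 0.32 and ITGA6 by 0.21. ITGAV was at -0.17 and SPP1 at -0.68. ITGB4 went from -0.16 to 0.03 and ITGA1 from -0.08 to 0.10, so their direction in time depends on the scaling. The largest declines in time were those of CD44 (-2.48 ± 0.18 on the log2 scale as deposited), ITGA5 (-2.43 ± 0.21) and ITGA3 (-2.12 ± 0.15), and their groups of 24 h and 144 h did not overlap.

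Most markers of hepatic stellate cells also declined between the time points. Of 10 such markers, all in the table, 9 were tested, and between 24 h and 144 h in untreated spheroids 7 fell and 1 rose, beside 52.4% and 20.1% of all genes. COL1A2, COL3A1, THY1 and TAGLN met the filter of 0.5 FPKM only through the 24 h groups, so the filter favored their falls in this count. COL1A1, a fibrillar collagen chain, fell from 15.1 to 1.92 FPKM (log2 fold change -2.93, limma adjusted p = 3.81e-10). VIM, an intermediate filament of mesenchymal cells, fell from 15.6 to 2.44 FPKM (-2.67, adjusted p = 6.17e-09). LOX, a collagen crosslinking enzyme, rose from 56.6 to 146 FPKM, and PDGFRB stayed at 3.10 and 3.08 FPKM. With 144 h of TPN 5 of the 9 fell and 1 rose, beside 28.3% and 24.2%, with log2 fold changes of -1.25 for COL1A1 and -1.07 for VIM. CD44 was lower in this comparison too, ITGA5 overlapped between the groups and ITGA3 was higher with TPN. The summed FPKM of the list ran from 154 to 158 in untreated and 148 to 154 in TPN libraries at 24 h, and from 198 to 207 and 214 to 217 at 144 h, led by LOX and ACTA2. DES, a defining marker of these cells, was at or near 0 in all groups, with a mean of 0.03 to 0.06 FPKM. The part that a change in the number of LX-2 cells had in the levels of CD44, ITGA5 and ITGA3 was not tested.

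**Figure D4:**
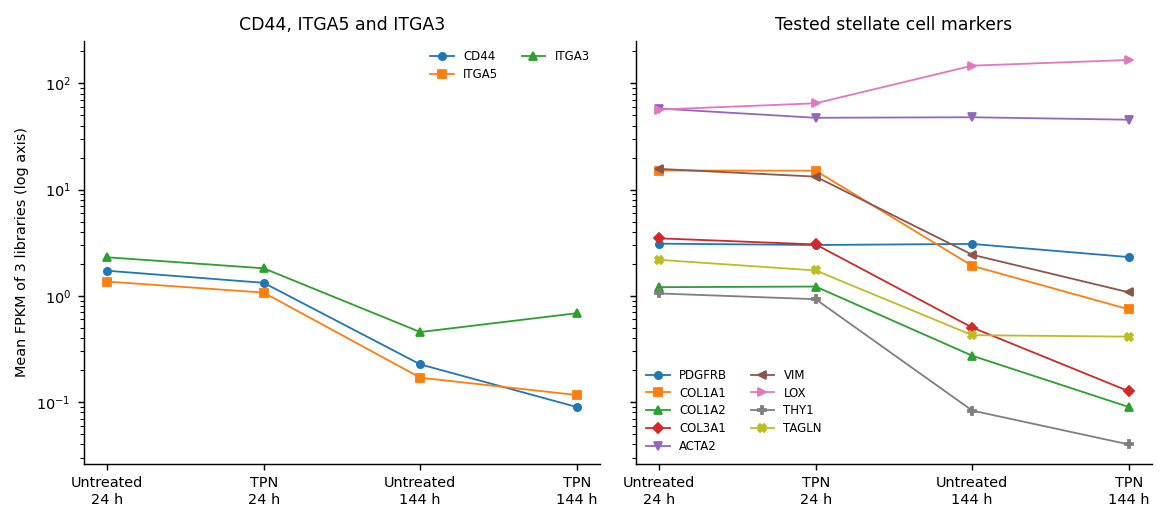
Mean FPKM of 3 libraries per group (logarithmic vertical axis) for CD44, ITGA5 and ITGA3 (left) and for the 9 tested stellate cell markers (right). CD44 went from 1.72 FPKM in untreated spheroids at 24 h to 0.227 FPKM at 144 h, and COL1A1 from 15.1 to 1.92 FPKM, whereas LOX rose and PDGFRB was level between these groups.

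Markers of other cell types ranged from absent to abundant. Endothelial markers summed to 0.22 to 0.84 FPKM in every library, with KDR and STAB2 at 0 in every library of 3 of the 4 groups. PTPRC, the pan-leukocyte marker, had a mean of at most 0.0167 FPKM in any group, while CD68 had 46.7 to 63.7 FPKM. Of 5 cholangiocyte markers 4 were in the table, and they summed to 334 to 352 and 320 to 327 FPKM in untreated and exposed libraries of 24 h, and to 301 to 313 and 271 to 280 FPKM at 144 h. KRT19, EPCAM and SOX9 made up nearly all of this sum, with group means of 68.7 to 118, 132 to 158 and 67.1 to 76.8 FPKM, whereas KRT7 had at most 0.0333 FPKM. With 144 h of TPN KRT19 fell (log2 fold change -0.52, limma adjusted p = 8.28e-08), and EPCAM and SOX9 did not pass. Hepatocyte markers summed to 10305 to 14211 FPKM, and 7 of 8 of them fell with 144 h of TPN, beside 28.3% of all genes. The 5 proliferation markers summed to 357 to 363 FPKM in untreated and 319 to 330 FPKM in exposed libraries of 24 h, and to 244 to 258 and 166 to 168 FPKM at 144 h. The part of these markers in the levels of the 10 genes was not tested. Between 10936 and 11074 genes reached 1 FPKM in a library, and a single estimate over all libraries put the depth at about 18000000 fragments each.

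Within the 144 h libraries the other integrin subunits gave a mixed picture. Of 18 further subunits 17 were in the table and 8 were tested. By limma 0 passed at 24 h, beside 5.04% higher and 5.46% lower of all genes, with 1 at an unadjusted p below 0.05. At 144 h 2 rose and 3 fell with TPN, where 24.2% of all genes tested rose and 28.3% fell. ITGAX, a subunit usually found on myeloid cells, rose from 1.59 to 4.02 FPKM (log2 fold change 1.29 ± 0.14, limma adjusted p = 4.16e-06). ITGB5, a partner of ITGAV in the vitronectin receptor, rose by little, from 70.3 to 77.6 FPKM (0.14, adjusted p = 0.00151). ITGAL, a lymphocyte subunit, fell from 3.64 to 1.95 FPKM (-0.87 ± 0.089, adjusted p = 2.47e-06). ITGB2, the beta partner of ITGAX and ITGAL, was at 79.7 and 78.5 FPKM and did not pass.

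Ligands of these receptors changed in both directions at 144 h. Of 12 tested RGD and matricellular ligands 3 rose and 6 fell with TPN, beside 24.2% and 28.3% of all genes, with a median log2 fold change of -0.18 beside -0.02 for all genes. COMP, a cartilage matrix protein, fell from 11.8 to 4.11 FPKM (-1.51 ± 0.084, limma adjusted p = 7.60e-09), THBS2, a thrombospondin, from 0.763 to 0.25 FPKM (-1.33, adjusted p = 3.88e-06), and CCN1, a matricellular integrin ligand, from 9.21 to 5.51 FPKM (-0.73, adjusted p = 1.88e-06). Of 5 tested laminin chains 2 rose and 2 fell, beside the same shares of all genes. LAMB1 rose from 61.1 to 83.1 FPKM (0.44, adjusted p = 1.04e-07) and LAMA3 from 6.503 to 8.773 FPKM (0.43, adjusted p = 8.36e-05). Both tested collagen IV chains fell, COL4A2 from 0.887 to 0.553 FPKM (-0.59, adjusted p = 5.81e-05) and COL4A1 from 0.277 to 0.113 FPKM (-0.84, adjusted p = 0.00239). At these low levels the size depended on the setting, from -1.29 to -0.20 for COL4A1 and from -1.62 to -0.50 for THBS2. The 2 genes of the osteopontin family in the table, IBSP and DMP1, were too low to be tested.

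Inside the cell, 22 adhesion adaptors and kinases were tested and 8 rose and 8 fell at 144 h, beside 24.2% and 28.3% of all genes. SLC3A2, the CD98 heavy chain that binds integrin beta tails and carries amino acid transporters, rose from 129 to 202 FPKM (log2 fold change 0.64 ± 0.030, limma adjusted p = 1.47e-09). SRC, an adhesion kinase, had already risen at 24 h, from 43.7 to 51.8 FPKM (0.25, adjusted p = 1.32e-04). LIMS2, a partner of integrin-linked kinase, rose at 24 h from 1.90 to 2.55 FPKM (0.41, adjusted p = 0.0129), a call lost without TPN 24 h replicate 3 (adjusted p = 0.0574). At 144 h, of 6 tested hemidesmosome and tetraspanin genes 3 rose and 0 fell by limma, beside 24.2% and 28.3% of all genes. At an unadjusted p below 0.05, 4 were higher and 0 lower, a count without a share of all genes to set beside it. CD9, a tetraspanin that associates with integrins, rose from 1.76 to 4.23 FPKM (1.23 ± 0.18, adjusted p = 7.02e-05).

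Around CD44, the hyaluronan genes and the linkers changed as follows. Of 7 tested hyaluronan genes 3 rose and 3 fell at 144 h, where 24.2% of all genes rose and 28.3% fell. HAS3, a hyaluronan synthase, rose from 1.22 to 4.0 FPKM (log2 fold change 1.64 ± 0.14, limma adjusted p = 3.24e-07) and CEMIP2, a surface protein linked to hyaluronan breakdown, from 36.4 to 56.1 FPKM (0.62, adjusted p = 1.36e-09). HMMR, a hyaluronan receptor of dividing cells, fell from 17.8 to 11.7 FPKM (-0.61, adjusted p = 7.98e-07). Of 8 tested CD44 linkers and splicing factors 1 rose and 5 fell, beside the same shares of all genes. MSN, moesin, which ties CD44 to actin, fell from 0.530 to 0.247 FPKM (-0.86 ± 0.11, adjusted p = 2.66e-05), and in untreated spheroids it had fallen from 4.38 FPKM at 24 h. Over all alternatives the TPN difference of MSN at 144 h ran from -1.07 to -0.29. EZR, its relative ezrin, had fallen with TPN at 24 h, from 54.1 to 46.7 FPKM (-0.21, adjusted p = 4.70e-04). HYAL1, a hyaluronidase, also fell at 24 h, from 83.6 to 68.1 FPKM (-0.30, adjusted p = 8.79e-05), and so did the laminin chain LAMB2, from 43.0 to 35.7 FPKM (-0.27, adjusted p = 0.00126).

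Of 7 tested proteases known to cut osteopontin or CD44, 4 rose and 1 fell at 144 h, beside 24.2% and 28.3% of all genes. PLAU, urokinase, rose from 0.170 to 0.483 FPKM (log2 fold change 1.16 ± 0.23, limma adjusted p = 7.64e-04) at a low level. ADAM17, a membrane sheddase, rose from 11.1 to 18.1 FPKM (0.70 ± 0.047, adjusted p = 4.52e-08). F2, prothrombin, fell by 0.44. Of the matrix metalloproteinases in this list MMP14 alone was tested, and it did not pass (0.15, limma adjusted p = 0.0583). MMP2, MMP3, MMP7 and MMP9 were too low to be tested, MMP7 with 0.207 FPKM untreated and 0.843 FPKM with TPN at 144 h. Over the ECM-receptor interaction pathway of KEGG, without the 10 genes, 38 of 70 genes were tested. Of these 12 rose and 17 fell at 144 h, beside 24.2% and 28.3% of all genes. The other 24 h differences of listed genes that passed and are named by rule, those of LAMA3, CCN1, VTN, CEMIP, ADAM17 and F2, had log2 fold changes between -0.28 and 0.17 and did not hold in every setting. Each of the 6 libraries of 24 h ended at least 1 of these calls when it was left out, and over all alternatives the adjusted p reached 0.142 for LAMA3, 0.116 for CCN1, 0.0755 for VTN, 0.0680 for CEMIP, 0.115 for ADAM17 and 0.154 for F2.

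**Figure D5:**
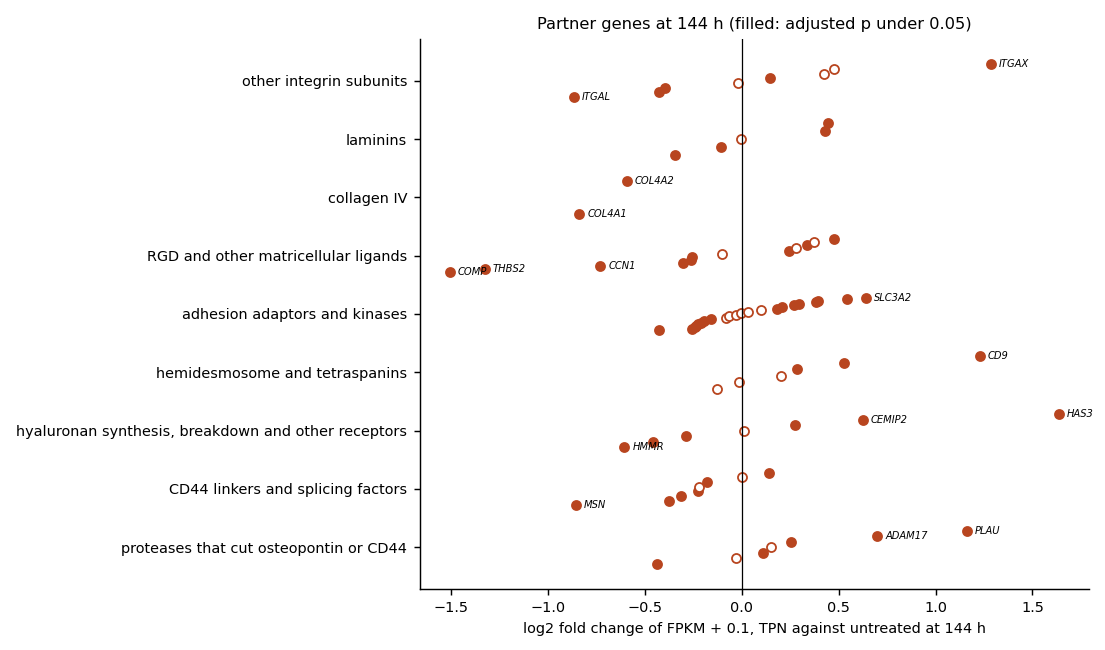
Log2 fold change of FPKM + 0.1 for TPN against untreated spheroids at 144 h (horizontal axis) of the tested partner genes by list; filled points had a limma adjusted p below 0.05. HAS3, ITGAX, CD9 and PLAU lay furthest to the right, at 1.64, 1.29, 1.23 and 1.16, and COMP and THBS2 furthest to the left, at -1.51 and -1.33.

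The genes whose log2 values were most like those of SPP1 over the 12 libraries were CTTN (Pearson 0.995), SEL1L3 (0.992), CEACAM1 (0.989) and CD109 (0.988). CTTN, which encodes the actin-binding protein cortactin, had a mean of 67.5 FPKM without and 73.4 FPKM with TPN at 24 h, and 55.2 and 81.1 FPKM at 144 h. For CD44 they were BCLAF1, MLEC, CLSPN and RHOBTB1, at 0.996 to 0.997. ITGA5, with 0.978, and ITGA3, with 0.9004, were nearest to CD44 among the other 9 genes, and ITGA2, with -0.939, was the furthest. These values too describe 4 groups of libraries.

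Promoter windows of RefSeq (GRCh38.p14, 250 bases before to 50 after the start) matched 8 of the 10 genes. Those of SPP1 and ITGA2, which rose with TPN, and of CD44 and ITGA5, which declined in culture, are printed because these pairs moved in opposite directions over time in exposed spheroids. Capitals mark matches on either strand to 4 motifs, the AP-1 site TGACTCA, the core antioxidant response element TGACNNNGC, the TEAD site GGAATG and the GC box GGGCGG. An AP-1 site followed by GC would match the first and the second of them.
SPP1, chr4:87975464-87975763, plus strand: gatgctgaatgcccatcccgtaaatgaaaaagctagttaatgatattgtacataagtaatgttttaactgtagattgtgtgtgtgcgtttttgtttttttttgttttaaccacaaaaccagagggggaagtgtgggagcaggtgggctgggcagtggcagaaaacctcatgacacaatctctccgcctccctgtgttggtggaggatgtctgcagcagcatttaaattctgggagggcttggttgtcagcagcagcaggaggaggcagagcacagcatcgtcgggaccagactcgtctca
ITGA2, chr5:52989102-52989401, plus strand: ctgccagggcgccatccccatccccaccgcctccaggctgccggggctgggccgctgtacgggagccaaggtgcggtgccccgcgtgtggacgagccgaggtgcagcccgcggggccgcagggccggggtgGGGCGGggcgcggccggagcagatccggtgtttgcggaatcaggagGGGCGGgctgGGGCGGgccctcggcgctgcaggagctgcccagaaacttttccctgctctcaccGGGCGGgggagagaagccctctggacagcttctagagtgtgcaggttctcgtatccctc
CD44, chr11:35138921-35139220, plus strand: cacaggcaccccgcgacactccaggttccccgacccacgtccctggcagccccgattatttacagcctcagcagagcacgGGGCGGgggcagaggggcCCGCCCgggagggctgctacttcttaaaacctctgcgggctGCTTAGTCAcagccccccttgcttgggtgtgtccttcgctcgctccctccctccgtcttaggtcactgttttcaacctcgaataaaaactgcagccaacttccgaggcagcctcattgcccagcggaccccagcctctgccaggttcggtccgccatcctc
ITGA5, chr12:54419217-54419516, minus strand: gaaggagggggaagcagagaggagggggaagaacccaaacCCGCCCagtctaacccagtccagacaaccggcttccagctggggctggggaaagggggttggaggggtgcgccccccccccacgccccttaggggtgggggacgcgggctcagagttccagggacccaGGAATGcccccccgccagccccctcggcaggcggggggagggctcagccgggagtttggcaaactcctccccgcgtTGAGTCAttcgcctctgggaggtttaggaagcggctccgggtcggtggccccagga
The SPP1 window held none of the 4 motifs and had 47.7% G and C, beside a median of 58.7% over 35116 promoters. The ITGA2 window held 4 GC boxes and 72.7% G and C. The CD44 window held 2 GC boxes and 1 antioxidant element, and that of ITGA5 held 1 match each to the AP-1 site, the TEAD site and the GC box. Over all promoters 4.95% held the AP-1 site, 13.3% the antioxidant element, 14.0% the TEAD site and 45.0% the GC box. Among the other windows, the antioxidant element was matched in ITGA1 and ITGB1, the TEAD site in ITGB1, and the GC box in ITGA6 and ITGB1, whereas ITGAV held none of the 4. A match describes letters in these windows and no binding.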

How the data were processed

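RNA was sequenced from 12 spheroid libraries, 3 per group. Per the labels and the paper's methods, the authors filtered reads with SOAPnuke, mapped them with HISAT2 2.0.4 to GRCh38.p13 and with Bowtie2 2.2.5 to transcripts, and calculated FPKM with RSEM; the FPKM values were used as deposited. The strand setting of the counting was not given in the sources used here. The study's own differential test, DESeq2, needs counts and was not run.

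FPKM + 0.1 was log2 transformed for the 11713 genes with a mean of at least 0.5 FPKM. limma 3.58.1 (R 4.3.3; lmFit on 4 groups, eBayes with trend) gave the contrasts, with Benjamini-Hochberg adjustment over all genes tested. A gene passed at an adjusted p below 0.05, and a DEG also had an absolute log2 fold change above 0.58. The procedure was tested on simulated data. The fragments per library were estimated from the spacing of low FPKM values in 70 genes, on GENCODE transcript lengths. FPKM is limited by counting error at low levels.

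The 10 genes and all lists were chosen with earlier results of these data known. The rule named the 10 genes; from each list, up to 3 DEGs per comparison with the largest change and no overlap of groups, or else up to 2 that passed; and the 4 genes most correlated with SPP1 and with CD44. FN1, ITGB5, ITGB2 at 144 h, the matrix metalloproteinases and the cell type markers were named after their values were seen. The paper states that its data come from independent experiments; the labels give only replicate numbers, so p values measure the spread between these libraries. Alternatives changed the pseudocount, filter, scaling, model and libraries. Figures used Python 3.11.15 and matplotlib 3.10.9.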

Additional observations from a re-analysis of the deposited data

Results flagged for a closer look

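Some effects of TPN differed between 24 h and 144 h. For ITGA1 and ITGA3 every exposed library lay below the untreated ones at 24 h and above them at 144 h, and the log2 fold change rose by 1.09 for ITGA1 and by 0.82 for ITGA3. Over all genes tested, such groups did not overlap for 29.9% at 24 h and 57.3% at 144 h. Neither 24 h difference passed, and the ITGA3 difference at 144 h did not pass in a model of the 144 h libraries alone. Both genes were selected on these data, so the difference is given as a description, not as a test.

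For 10 of the partner genes named for either TPN comparison the TPN effect differed between 144 h and 24 h in limma's interaction contrast. For these 10 the difference of log2 fold changes passed and exceeded 0.58 in size, as for 687 of all 11713 genes tested. They were named for their TPN changes in these same libraries, so the p values are no independent test. ITGAX met the filter of 0.5 FPKM only through the 144 h groups, and PLAU and MSN chiefly through the 24 h groups. The differences of these last genes are therefore given without p values. The difference was 1.44 for PLAU, 1.35 for HAS3 (adjusted p = 1.67e-04), 1.33 for ITGAX, 1.06 for CD9 (adjusted p = 0.00672) and 0.66 for LAMA3 (adjusted p = 1.36e-04). It was -1.30 for COMP (adjusted p = 5.95e-06), -0.88 for THBS2 (adjusted p = 0.00486), -0.78 for MSN, -0.69 for ITGAL (adjusted p = 0.00106) and -0.58 for COL4A2 (adjusted p = 0.00270). THBS2 and MSN no longer passed with a pseudocount of 1, THBS2 at adjusted p = 0.301. No such call of the 10 was lost when a library was left out. LAMA3 was the gene of these 10 with opposite signs that passed at both times, -0.23 at 24 h and 0.43 at 144 h. Its 24 h call was lost under 6 alternatives, 4 of them with a library left out, at a limma adjusted p of up to 0.142.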

How the results depend on the processing

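The counts of genes that passed stayed within 1.5 times under all 22 alternatives. With each library left out in turn they ranged from 884 to 1269 for TPN at 24 h (1230 with all libraries), from 5545 to 6094 for TPN at 144 h (6144), and from 52 to 57 for the listed partner genes at 144 h (56). With a replicate block the 3 counts were 1226, 6130 and 55. Libraries with the same replicate number had correlations of -0.083 to 0.151 in their deviations from the group means, so the number was not taken as a pairing.

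At 144 h no direction of the 10 genes changed. With TPN at 24 h, ITGA6, ITGAV, ITGB1 and ITGB4 lay so near 0 that their sign changed under some alternatives. ITGB4 in untreated spheroids over time turned from -0.16 to 0.019 under median ratio scaling. That scaling moved the genes higher and lower in untreated spheroids over time from 2360 and 6138 to 3884 and 3942, and in exposed spheroids from 2832 and 6093 to 4223 and 4271, and quantile normalization gave 3408 and 4436, and 3733 and 4819. The mean of 5 FPKM left CD44, ITGA3 and ITGA5 out. Depth limits these same 3 genes at 144 h.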

Other observations

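Other partner genes changed with time in culture. TNS1, a tensin that links integrin tails to actin, rose in untreated spheroids from 2.54 to 30.2 FPKM between 24 h and 144 h (3.52 ± 0.067 on the log2 scale, adjusted p = 4.61e-13 by limma) and in exposed ones from 2.72 to 36.4 FPKM (3.69, adjusted p = 1.50e-13). ITGB2, the leukocyte integrin beta subunit, rose from 43.2 to 79.7 FPKM in untreated spheroids (0.88, adjusted p = 5.55e-11), while PTPRC stayed at or near 0. CD81, a tetraspanin, fell from 2.42 to 0.293 FPKM (-2.67), and MSN from 4.38 to 0.530 FPKM (-2.83), alongside CD44, ITGA5 and ITGA3. CD81 and MSN reached the filter's mean of 0.5 FPKM through the 24 h groups, so their falls are given without p values. THBS1, a thrombospondin that binds integrins and CD47, fell from 9.73 to 4.36 FPKM (-1.14, adjusted p = 4.46e-09). Each kept its direction relative to the median shift of -0.18 over all genes.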
